A study of Mus musculus with 6 samples.

Results

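The genes described here encode the cytoskeleton, growth cone, synaptic vesicle machinery, surface adhesion molecules and secretory granules of neurons. They are a list of 40 gene symbols chosen by function, and all 40 were found among the 38553 genes of the table of all samples. RNA was measured by poly(A)+ sequencing of craniofacial tissue microdissected from mouse embryos at E12.5, in midgestation. The 3 control samples were Rbfox2 flox/flox, carrying both floxed alleles without Cre, and the 3 mutant samples were Pax3Cre/+:Rbfox2 flox/flox. All 6 samples thus share the floxed Rbfox2 alleles, no sample was treated, and the replicates were described as independent biological replicates of each genotype. Rbfox2 is an RNA-binding protein that regulates splicing. Pax3Cre is a knock-in, so that mutants alone carry Cre and have lost an intact copy of Pax3, and effects of these cannot be told apart from those of the Rbfox2 deletion. The Cre acts in the neural crest and also in mesodermal derivatives, whereas the neurons of the forebrain arise from neither. The authors also detected Pax3 itself in the dorsal neural tube, and whether any brain neurons carried the deletion was not tested here. Neurons of the cranial ganglia arise partly from the crest and partly from placodes. Values are FPKM (fragments relative to transcript length and to the number of mapped fragments), which are scaled to gene length and can be compared between genes.

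A young neuron builds axons and dendrites from microtubules, which proteins such as Map2, tau and doublecortin stabilize, and from neurofilaments, and extends them through a growth cone rich in Gap43. Transmitter release depends on SNARE proteins that fuse vesicles with the membrane and on synaptotagmins that sense calcium. Neural adhesion molecules of the immunoglobulin family bundle axons, neurexins join both sides of a synapse, and granins fill the dense-core granules of neurons and endocrine cells. In the embryonic face such RNA can come from cranial ganglia and nerves, the olfactory epithelium, the eye and any adjoining brain tissue.

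The samples were checked first. Rbfox2 itself was at 58.4, 65.0 and 61.3 FPKM in control replicates 1, 2 and 3 and at 38.1, 36.3 and 34.3 FPKM in mutant replicates 1, 2 and 3. It was lower in all 3 mutants, with a log2 fold change of -0.75 ± 0.079 (SE, limma, adjusted p = 0.138). Pax3 was at 8.83, 11.9 and 11.1 FPKM in controls and 8.62, 7.59 and 8.36 FPKM in mutants. The sex of the embryos is not in the labels, but the mean FPKM of 4 Y-linked genes was 14.4 and 13.9 in mutant replicates 1 and 2 and at most 0.0541 in the other samples, where the X-inactivation RNA Xist lay between 52.7 and 116 FPKM. Sex therefore differed between the groups. Summed FPKM ranged from 528123 to 590174 per sample. The tables hold no read counts, so counting error cannot be given. In whole tissue, fewer neurons and less of an RNA per neuron cannot be told apart.

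Of the 40 neuronal genes, 35 exceeded 5 FPKM in all samples of at least 1 group and were tested. Nefh, Cntn1, Nrxn3, Thy1 and Scg2 did not, and are given by their levels. Most of the tested genes were slightly higher in mutants, and none passed the test. Their median log2 fold change, mutant minus control on the log2(FPKM + 1) scale, was 0.18, beside 0.0057 over all 10061 genes tested. In all, 30 of the 35 had a log2 fold change above 0, as did 52.8% of all genes tested. No member had an adjusted p under 0.05 (limma, Benjamini-Hochberg over all genes tested), the smallest adjusted p of a member was 1.0, and 0% of all genes tested passed. At an unadjusted p under 0.05, 6 of the 35 were higher in mutants, where 0.706% of all genes were. None was lower, where 0.954% of all genes were. These 6 were Mapt, Syp, Map2, Dcx, Chgb and Tagln3. The log2 fold changes ran from -0.23 in Vamp2 to 0.37 in Chgb, with a median SE of 0.12, and no member changed by more than 1 on the log2 scale.

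Chgb, Syn1 and Syt4 had 1 or more controls under 5 FPKM and entered the test only through the mutants, so that their being higher there was favoured by the limit. No member entered only through the controls. Without these 3 genes, 27 of the 32 members over 5 FPKM in both groups had log2 fold changes above 0, with a median of 0.18, where 52.8% of the 9712 genes of that kind were above 0. At an unadjusted p under 0.05, 5 of the 32 were higher, where 0.607% of those genes were. With a limit that does not depend on the group, a mean of over 1 FPKM over all samples, 33 of 39 members were above 0, with a median of 0.16, where 50.7% of 13715 genes were. In that fit 6 were higher at an unadjusted p under 0.05, where 0.824% of those genes were, and 1, Thy1, was lower, where 1.26% were.

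Levels in the 2 groups did not overlap for 9 of the 35 genes, with all mutants above all controls, where 2.63% of all genes tested showed this. The 9 were Map2, Mapt, Dcx, Stmn2, Tagln3, Kif5a, Gprin1, Syp and Chgb. Without the genes that entered only through the mutants there were 8 of 32, where 2.53% of such genes showed this, and with the limit on the mean there were 9 of 39, where 2.79% did. None of the tested members lay lower in all mutants, where 2.37% of all genes did. With 3 samples a group, the smallest p that a two-sided exact permutation test of a single gene can give is 0.10, so no gene could pass it.

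**Figure D1:**
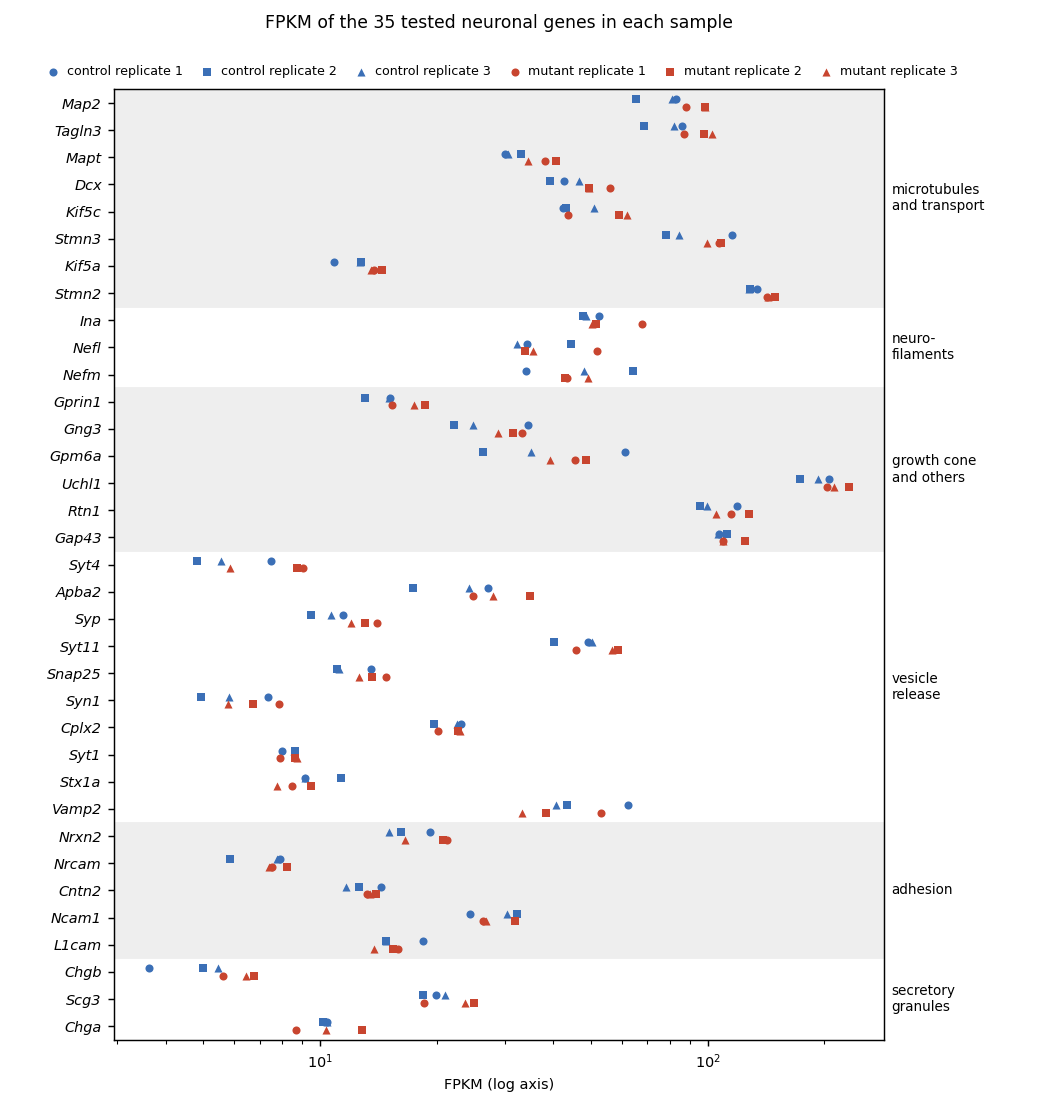
FPKM (log axis) of the 35 tested neuronal genes in each of the 3 control samples (blue) and 3 mutant samples (red), with marker shapes for replicate numbers and genes grouped by role. In 9 genes, among them Map2, Mapt and Dcx, every red marker lies to the right of every blue one, while Vamp2 and Nefm span both groups.

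The 6 samples contributed unequally. Relative to the control mean of each gene, the median of the 35 genes was 0.086, -0.10 and 0.0085 (log2) in control replicates 1, 2 and 3, and 0.14, 0.24 and 0.076 in mutant replicates 1, 2 and 3. Control replicate 2 held the lowest value of the 6 samples for 19 genes, and mutant replicate 2 held the highest for 13 and the lowest for 0. Control replicate 2 also had the highest summed level of mesenchyme, muscle and epithelium markers, given further on. Without control replicate 2, 2 members were at an unadjusted p under 0.05, where 0.772% of all genes in that fit were, and the members' median log2 fold change was 0.12. Without control replicates 1 and 3 in turn, 13 and 3 members were, where 6.75% and 1.35% of all genes were. Without mutant replicates 1, 2 and 3 in turn, 8, 1 and 5 members were, where 4.08%, 1.09% and 1.34% of all genes were.

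The first replicates of both groups deviated together from their group means, while replicates 2 and 3 did not clearly pair by number. Within replicate numbers, the members' median log2 difference was 0.015 in replicate 1, 0.33 in replicate 2 and 0.13 in replicate 3, beside -0.014, 0.0057 and 0.015 over all genes tested. The mutant was higher for 19, 30 and 28 of the 35 genes in the 3 pairs. In 15 of the 35 it was higher in every pair, where 13.6% of all genes were. In 2, Vamp2 and Stx1a, it was lower in every pair, where 1322 of all 10061 genes tested were. With the replicate number as a block, 12 members were higher at an unadjusted p under 0.05, where 2.31% of all genes were, and Vamp2 and Stx1a were lower, where 3.7% of all genes were. The smallest adjusted p of a member in that fit was 0.698 (limma, Mapt).

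**Figure D2:**
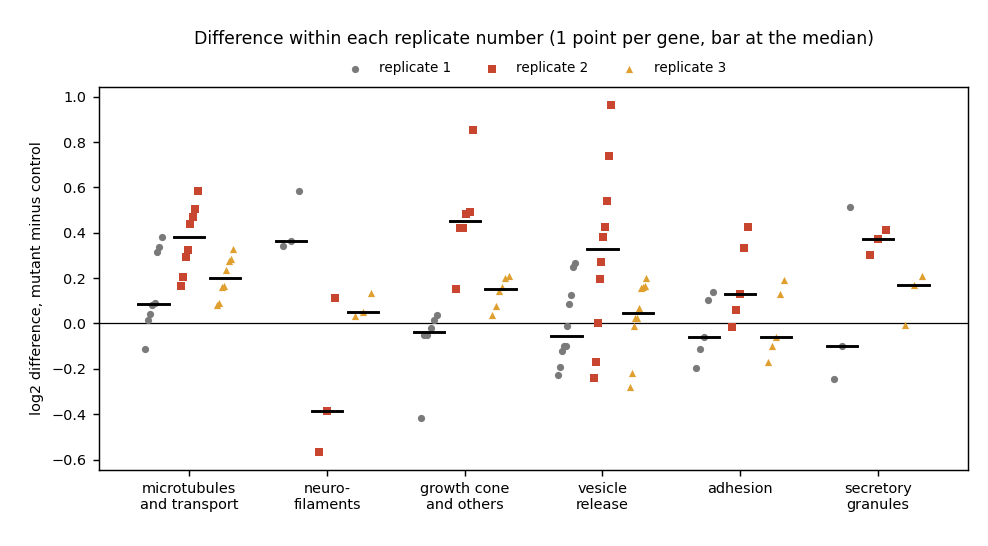
Log2 difference of the mutant from the control with the same replicate number, 1 point for each of the 35 tested genes, by role, with a bar at the median. In replicate 2 the medians were 0.38 for microtubule genes, 0.45 for growth cone genes and 0.33 for vesicle release genes, and in replicate 1 they were 0.086, -0.036 and -0.053.

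Sex was uneven between the groups, as given above. Mutant replicate 3, which like the controls lacked Y-linked RNA, lay above all 3 controls for 15 of the 35 genes, where 31.2% of all genes did. With the mean log2 level of the Y-linked genes as a covariate, no member had an unadjusted p under 0.05, where 0.497% of all genes tested were higher at that level, and the members' median log2 fold change was 0.076, beside 0.035 over all genes. Of the 35 genes, 28 were above 0 in that fit, as were 60.0% of all genes tested. The 4 X-linked members, Dcx, Syp, Syn1 and L1cam, had log2 fold changes of 0.20, 0.18, -0.037 and -0.20 there.

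The sequence bound by Rbfox proteins is UGCAUG. It was searched, as TGCATG on the transcript strand, in the longest protein-coding transcript of each gene (GENCODE M21, build GRCm38). Introns, where Rbfox2 acts on splicing, were not searched. Of the 40 neuronal genes, 26 held at least 1 match (65%), where 55.7% of the 9771 tested genes with a coding transcript did. In the 3′ UTR, 23 of the 40 held 1 or more (57.5%). Among tested genes the share with a 3′ UTR match was 57.1% of the 35 members and 35.6% of the 9771 genes with a coding transcript, at a median 3′ UTR length of 1285 and 1178 bases and at 0.546 and 0.352 matches per kilobase. The median log2 fold change was 0.16 for the 20 members with a 3′ UTR match and 0.20 for the 15 without. Of the 9 members higher in all mutants, Map2, Mapt, Tagln3 and Chgb held none anywhere in the transcript. The others, Dcx, Kif5a, Gprin1, Stmn2 and Syp, held 4, 2, 2, 1 and 1 in the 3′ UTR. The searched 3′ UTRs of Map2, Chgb and Tagln3 were short, at 181, 250 and 338 bases. A match is a run of letters and not evidence of binding.

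The 3 members with the most 3′ UTR matches, 4 each, are shown because their log2 fold changes differed in sign or size: Dcx 0.26, Cplx2 0.0099 and Stx1a -0.19. Each line gives 24 bases 5′ to 3′ on the transcript strand with the match in capitals.

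Dcx match 1, chrX:143862099-143862122, minus strand: tgaaagccaTGCATGccaattctg

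Dcx match 2, chrX:143860905-143860928, minus strand: agttcagcgTGCATGgtcagcaag

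Dcx match 3, chrX:143857056-143857079, minus strand: cccagctaaTGCATGgtttcagag

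Dcx match 4, chrX:143856792-143856815, minus strand: gagagtaaaTGCATGgtcttgtac

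Cplx2 match 1, chr13:54381225-54381248, plus strand: tcttgagatTGCATGtgtgtgtgt

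Cplx2 match 2, chr13:54381362-54381385, plus strand: ctttcagatTGCATGtgctagctt

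Cplx2 match 3, chr13:54381382-54381405, plus strand: gcttgtataTGCATGtacttgcaa

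Cplx2 match 4, chr13:54382779-54382802, plus strand: taccacacaTGCATGggagggcag

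Stx1a match 1, chr5:135050083-135050106, plus strand: cgtgtcgtgTGCATGatcttgtga

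Stx1a match 2, chr5:135050642-135050665, plus strand: ggccagagtTGCATGttggggaca

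Stx1a match 3, chr5:135050891-135050914, plus strand: caaggagtaTGCATGcgagtgcat

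Stx1a match 4, chr5:135050901-135050924, plus strand: gcatgcgagTGCATGcagcgggag

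In Dcx the 4 matches are spread over a 3′ UTR of 7709 bases. In Stx1a they fall in 1196 bases, and matches 3 and 4 lie so close that their windows overlap, as do those of Cplx2 matches 2 and 3. The outer letters of the windows differ from match to match.

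All 8 genes of microtubule proteins and motors had log2 fold changes above 0, with a median of 0.26. At an unadjusted p under 0.05, 4 of the 8 were higher, where 0.706% of all genes tested were. In 6 of the 8 all mutants lay above all controls, where 2.63% of all genes tested showed this. In the mutant of every replicate number 7 of the 8 were higher, where 13.6% of all genes tested were. Map2 (chr1:66175273-66442583) encodes the main microtubule-associated protein of dendrites. It was at 83.2, 65.3 and 80.9 FPKM in controls and 88.1, 98.5 and 98.7 FPKM in mutants. Control replicate 2 was the lowest, and the nearest values of the groups were 83.2 and 88.1 FPKM. The log2 fold change of Map2 was 0.32 ± 0.11 (SE, limma, unadjusted p = 0.0255, adjusted p = 1.0).

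Mapt (chr11:104231390-104332090) encodes tau, which stabilizes axonal microtubules. It was at 29.9, 33.0 and 30.5 FPKM in controls and 38.1, 40.7 and 34.3 FPKM in mutants. The controls lay close together, and here control replicate 2 was the highest of the 3. The log2 fold change of Mapt was 0.27 ± 0.088 (SE, limma, unadjusted p = 0.0194), the smallest p among the neuronal genes. Within replicate numbers the differences of Mapt were 0.34, 0.30 and 0.16 (log2). With the block, the unadjusted p of Mapt was 0.00419 and its adjusted p was 0.698 (limma).

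Dcx (chrX:143855842-143933311) encodes doublecortin, a microtubule protein of migrating neurons. It was at 42.7, 39.3 and 46.7 FPKM in controls and 55.9, 49.5 and 49.4 FPKM in mutants. The highest control, replicate 3, lay just under the lowest mutant, also replicate 3. The log2 fold change of Dcx was 0.26 ± 0.094 (SE, limma, unadjusted p = 0.0263). Tagln3 (chr16:45711230-45724608), a neuronal member of the transgelin family, was at 85.8, 68.6 and 81.8 FPKM in controls and 86.7, 97.8 and 103 FPKM in mutants. The groups of Tagln3 were separated by less than 1 FPKM, between the first replicates. Its log2 fold change was 0.28 ± 0.11 (SE, limma, unadjusted p = 0.0397).

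Stmn2 (chr3:8509360-8561606) and Stmn3 encode stathmins, which bind tubulin and promote microtubule turnover. Stmn2 had the highest mean level of the group, with 134, 129 and 128 FPKM in controls and 143, 149 and 144 FPKM in mutants. The difference of Stmn2 was small and even, at 0.15 ± 0.072 (log2, SE). Stmn3 was at 116, 78.1 and 84.4 FPKM in controls and 107, 109 and 99.6 FPKM in mutants. Control replicate 1 held the highest Stmn3 level of all samples, and the mutant was lower in replicate 1 only.

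Kif5a (chr10:127225696-127263348) and Kif5c encode heavy chains of kinesin-1, which carries cargo along axons. Kif5a was at 10.9, 12.8 and 12.7 FPKM in controls and 13.8, 14.4 and 13.6 FPKM in mutants, with a log2 fold change of 0.19 ± 0.087 (SE). Kif5c was at 42.5, 43.2 and 51.0 FPKM in controls and 43.7, 59.0 and 62.0 FPKM in mutants, so that mutant replicate 1 lay within the controls.

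The neurofilament genes did not follow that pattern. Of the 3 tested, Ina and Nefl had log2 fold changes above 0 and Nefm below, and none had an unadjusted p under 0.05. Ina encodes alpha-internexin, the intermediate filament of early neurons. It was at 52.5, 47.6 and 48.5 FPKM in controls and 67.8, 51.5 and 50.2 FPKM in mutants, so that mutant replicate 1 stood above the others. The log2 fold change of Ina was 0.17 ± 0.13 (SE). Nefl, the light chain, was at 34.3, 44.4 and 32.2 FPKM in controls and 51.9, 33.7 and 35.4 FPKM in mutants. Nefm, the medium chain, was at 34.1, 64.1 and 48.0 FPKM in controls and 43.5, 42.9 and 49.0 FPKM in mutants. For both, control replicate 2 was the highest control, whereas it was the lowest sample for most of the other neuronal genes. Nefl was higher in the mutant of replicate 1 by 0.58 and lower in that of replicate 2 by a log2 difference of -0.39. Nefh, the heavy chain, which is typical of mature axons, did not exceed 0.668 FPKM in any sample. The annotated exons of Nefl and Nefm overlap on opposite strands, and whether the counting used strand is not given in the sources used here, so that the levels of both are uncertain. In all, exons of 13 of the 40 genes overlap those of another gene, 12 of them on the other strand, and Gng3, Ina, Map2, Ncam1, Nrxn2, Nrxn3, Syn1, Syp, Syt4 and Uchl1 carry the same uncertainty.

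Growth cone and membrane proteins of neurons were higher in mutants by their fold changes in 6 of 6 genes, with a median of 0.19, and none had an unadjusted p under 0.05. Gprin1 (chr13:54736671-54749874), a G-protein-regulated inducer of neurite outgrowth, was the only one whose groups did not overlap. It was at 15.2, 13.1 and 15.1 FPKM in controls and 15.3, 18.6 and 17.4 FPKM in mutants. The first replicates of Gprin1 were almost equal, and the log2 fold change was 0.23 ± 0.10 (SE, limma, unadjusted p = 0.0548). Gng3, a gamma subunit of G proteins in neurons, was at 34.4, 22.1 and 24.8 FPKM in controls and 33.2, 31.6 and 28.8 FPKM in mutants. Control replicate 1 held the highest value of Gng3 and control replicate 2 the lowest.

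Uchl1, a ubiquitin hydrolase abundant in neurons, had the highest mean level of the tested members at 203 FPKM. It was at 206, 173 and 192 FPKM in controls and 203, 232 and 212 FPKM in mutants. Gap43, the growth-associated protein of axon tips, was at 107, 112 and 107 FPKM in controls and 109.6, 125 and 109.4 FPKM in mutants. Its 6 values differed by 1.17-fold at most, and its log2 fold change was 0.076 ± 0.085 (SE). Rtn1, a reticulon of the neuronal endoplasmic reticulum, ranged from 95.4 to 119 FPKM in controls and from 105 to 128 FPKM in mutants. Gpm6a, a membrane glycoprotein of growing neurites, varied most among the 35 genes, 2.31-fold from control replicate 2 at 26.4 FPKM to control replicate 1 at 61.1 FPKM. All 3 mutants lay between these 2 controls for Gpm6a, and its log2 fold change was 0.20 ± 0.28 (SE). Without control replicate 2 it was -0.065.

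**Figure D3:**
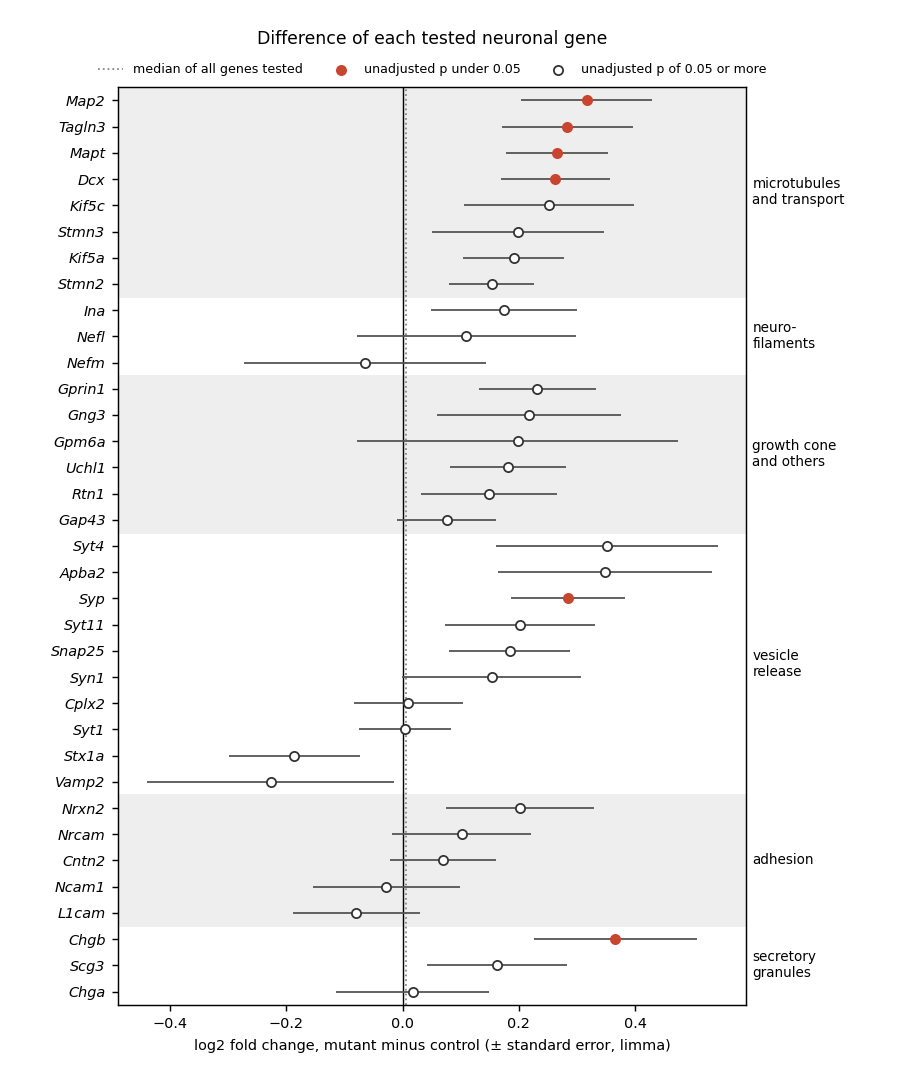
Log2 fold change (mutant minus control, log2(FPKM + 1) scale) of the 35 tested neuronal genes with its standard error from limma, by role. Filled points mark the 6 genes with an unadjusted p under 0.05, and the dotted line is the median of all genes tested, 0.0057. All 8 microtubule genes lie right of it, while Vamp2 and Stx1a lie furthest to the left.

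Vesicle release genes had fold changes of both signs. Of 10 tested, 8 had log2 fold changes above 0, with a median of 0.17, and 1 had an unadjusted p under 0.05. Syt4 and Syn1 were tested only through the mutants, and without them 6 of 8 were above 0, with a median of 0.097. The gene at an unadjusted p under 0.05, Syp (chrX:7638471-7653256), encodes synaptophysin, a major membrane protein of synaptic vesicles. It was at 11.5, 9.49 and 10.7 FPKM in controls and 14.03, 13.1 and 12.0 FPKM in mutants. The groups of Syp did not overlap, and each mutant was above the control of its number. Its log2 fold change was 0.28 ± 0.098 (SE, limma, unadjusted p = 0.022).

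Of the synaptotagmins, the calcium sensors and their relatives, Syt4 was at 7.46, 4.82 and 5.56 FPKM in controls and 9.05, 8.71 and 5.88 FPKM in mutants. Its log2 fold change was 0.35 ± 0.19 (SE), but 0.0020 with the Y-linked covariate, and mutant replicate 3 lay within the controls. Syt11, the most abundant of the vesicle release genes, was at 49.2, 40.2 and 50.4 FPKM in controls and 45.9, 58.8 and 56.6 FPKM in mutants. Here mutant replicate 1 lay within the controls and the others above. Syt1, the main sensor of fast release, was the steadiest member, with values from 7.91 to 8.72 FPKM over all 6 samples and a log2 fold change of 0.0045 ± 0.080 (SE).

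Apba2, an adaptor protein that binds the amyloid precursor protein and the vesicle-priming protein Munc18, was at 27.1, 17.4 and 24.2 FPKM in controls and 24.8, 34.9 and 28.01 FPKM in mutants. The extremes of Apba2 were the second replicates of the 2 groups, and its log2 fold change was 0.35 ± 0.18 (SE). Without control replicate 2 it was 0.17, and without mutant replicate 2 it was 0.22. Syn1, a synapsin that tethers vesicles, ranged from 4.92 to 7.34 FPKM in controls and from 5.79 to 7.86 FPKM in mutants. Cplx2, a complexin that clamps SNARE complexes, ranged from 19.6 to 23.1 FPKM in controls and from 20.1 to 22.95 FPKM in mutants.

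The 3 SNARE genes of synaptic fusion had fold changes of both signs, and none had an unadjusted p under 0.05 in the fit of all samples without the block. Snap25 was at 13.5, 11.1 and 11.2 FPKM in controls and 14.8, 13.6 and 12.6 FPKM in mutants, higher in the mutant of every number, with a log2 fold change of 0.18 ± 0.10 (SE). Vamp2 (chr11:69088490-69092384) was at 62.3, 43.3 and 40.6 FPKM in controls and 53.0, 38.4 and 33.2 FPKM in mutants. The first replicates of both groups were the highest of each, so that the groups overlapped, but each mutant was below the control of its number by 0.17 to 0.28 on the log2 scale. The log2 fold change of Vamp2 was -0.23 with an SE of 0.21, and of 0.051 with the replicate block, where the unadjusted p was 0.0048 and the adjusted p was 0.702 (limma). Stx1a (chr5:135023482-135051100) was at 9.15, 11.3 and 9.17 FPKM in controls and 8.48, 9.46 and 7.73 FPKM in mutants. It too was lower in the mutant of every number, and its log2 fold change was -0.19 ± 0.11 (SE).

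Adhesion molecules showed the smallest shift, with a median log2 fold change of 0.069 over 5 tested genes, 3 above 0, and none at an unadjusted p under 0.05. Ncam1, the neural cell adhesion molecule, was at 24.4, 32.3 and 30.4 FPKM in controls and 26.4, 31.9 and 26.9 FPKM in mutants. Its log2 fold change was -0.028 ± 0.13 (SE), and its groups covered nearly the same range. L1cam, which guides and bundles axons, ranged from 14.8 to 18.4 FPKM in controls and from 13.8 to 15.9 FPKM in mutants. Its exons overlap those of Arhgap4 on the same strand, which makes its level uncertain. Cntn2, a contactin of early axons, ranged from 11.7 to 14.4 FPKM in controls and from 13.2 to 13.9 FPKM in mutants. Nrcam, an L1-family protein, was at 7.89, 5.85 and 7.76 FPKM in controls and 7.52, 8.21 and 7.40 FPKM in mutants, all within a narrow range but for the low control replicate 2.

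Nrxn2, a presynaptic neurexin, had the largest log2 fold change of the adhesion genes at 0.20 ± 0.13 (SE). It was at 19.2, 16.2 and 15.1 FPKM in controls and 21.3, 20.7 and 16.6 FPKM in mutants, higher in the mutant of every number although the groups overlapped. Nrxn3 lay between 3.13 and 3.95 FPKM and Cntn1 between 2.62 and 3.35 FPKM over all samples, below the limit for testing. Thy1, a surface glycoprotein of mature neurons that other cells also make, was at 1.65, 2.79 and 1.93 FPKM in controls and 1.43, 1.48 and 1.34 FPKM in mutants. Thy1 was the only member with all mutants below all controls, at a level below that limit. Its log2 fold change was -0.36 ± 0.15 (SE, fit without the filter).

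All 3 tested secretory granule genes had log2 fold changes above 0, with a median of 0.16, or 0.090 over the 2 that were tested other than only through the mutants. Chgb (chr2:132781278-132795079), or chromogranin B, was at 3.63, 4.98 and 5.45 FPKM in controls and 5.61, 6.74 and 6.45 FPKM in mutants. Its groups did not overlap, and its log2 fold change of 0.37 ± 0.14 (SE, limma, unadjusted p = 0.0345) was the highest of the 35. Chgb passed the level for testing only through the mutants, since 2 controls were under 5 FPKM. Chga, or chromogranin A, was at 10.4, 10.2 and 10.4 FPKM in controls and 8.66, 12.8 and 10.4 FPKM in mutants. The controls of Chga hardly differed, while the mutants lay on both sides of them. Scg3, a granin that sorts others into granules, was at 19.9, 18.5 and 20.97 FPKM in controls and 18.6, 24.9 and 23.7 FPKM in mutants. Scg2, or secretogranin II, ranged from 3.73 to 5.77 FPKM in controls and from 4.41 to 6.17 FPKM in mutants and was not tested.

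A further 88 genes of the same pathways were read from 4 other lists, and 51 were tested. Of these, 40 had log2 fold changes above 0, with a median of 0.090, where 52.8% of all genes tested were above 0. At an unadjusted p under 0.05, 5 were higher and 1 was lower, where 0.706% and 0.954% of all genes tested were. Map1a, Nfasc, Pcsk1n, Ptprn2, Rab3c and Stxbp5 were tested only through the mutants. Of the 43 over 5 FPKM in both groups, 33 were above 0, with a median of 0.088, where 52.8% of the 9712 genes of that kind were. At that p, 4 of the 43 were higher, where 0.607% of those genes were, and 1 was lower, where 79 of the 9712 were. Among other cytoskeletal genes, 17 of 19 were above 0, with a median of 0.066, where 52.8% of all genes tested were above 0. Crmp1, a collapsin response mediator, was at 105, 87.4 and 103 FPKM in controls and 115, 131 and 117 FPKM in mutants (log2 fold change 0.30 ± 0.10, SE). Map6, a protein of cold-stable microtubules, was at 19.3, 14.04 and 14.2 FPKM in controls and 21.4, 20.5 and 18.1 FPKM in mutants (0.33 ± 0.13, SE). Prph was at 18.4, 29.7 and 19.4 FPKM in controls and 16.7, 17.7 and 14.8 FPKM in mutants (-0.41 ± 0.18, SE, limma, unadjusted p = 0.0545). Of the 43, Prph alone had all mutants below all controls, where 220 of the 9712 genes of that kind did. All mutants lay above all controls for 4 of the 43, where 2.53% of such genes did. Stmn1, the stathmin of dividing cells and neurons and the most abundant of the other cytoskeletal genes, ranged from 997 to 1272 FPKM over the 6 samples.

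Among other synaptic genes, 14 of 19 were above 0, with a median of 0.11, where 52.8% of all genes tested were above 0. Rab3b, a GTPase of secretory vesicles, was at 6.60, 7.36 and 7.86 FPKM in controls and 10.5, 11.9 and 8.31 FPKM in mutants (log2 fold change 0.43 ± 0.13, SE). Cadps, which primes dense-core vesicles, had a log2 fold change of 0.22 ± 0.084 (SE), and Rab3c, tested only through the mutants, one of 0.45 ± 0.18 (SE). Nsg2, the most abundant of the tested synaptic genes, ranged from 64.4 to 112 FPKM. Dnm1, the dynamin of synaptic endocytosis, was at 33.3, 32.7 and 27.7 FPKM in controls and 31.0, 16.9 and 15.2 FPKM in mutants. Its log2 fold change of -0.61 ± 0.25 (SE, limma, unadjusted p = 0.0408) had an adjusted p of 1.0. Mutant replicates 2 and 3 lay below all controls, while mutant replicate 1 lay within them.

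Among the other adhesion and granule genes, no tested gene had an unadjusted p under 0.05. Chl1 and Cntn5, adhesion genes below the level for testing, had all mutants above all controls, with log2 fold changes of 0.56 ± 0.20 and 0.24 ± 0.092 (SE, unadjusted p = 0.0281 and 0.0401, adjusted p = 1.0 for both, limma fit without the filter). Of 9 tested adhesion genes 5 were above 0, with a median of 0.046, and Nfasc, tested only through the mutants, and Astn1 had the smallest p. Cntnap2, the most abundant, ranged from 32.2 to 53.4 FPKM. All 4 tested granule genes were above 0, with a median of 0.17, and Ptprn2 and Cpe had the smallest p, with Cpe between 96.6 and 122 FPKM. Only 2 of these 4 were over 5 FPKM in both groups, Ptprn2 and Pcsk1n having entered through the mutants.

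Markers of cell types were read to see what else differed between the samples. Of 13 general neuron markers 11 were tested, all 11 had log2 fold changes above 0, and their median was 0.23. Nova1 and Nova2 were tested only through the mutants, and of all 13 markers, which had a mean of over 1 FPKM, 13 were above 0, with a median of 0.23. Tubb3, neuronal tubulin, was at 392, 322 and 366 FPKM in controls and 402, 498 and 466 FPKM in mutants (log2 fold change 0.34 ± 0.12, SE). Elavl3, a neuronal RNA-binding protein, was at 31.7, 26.2 and 31.1 FPKM in controls and 33.7, 35.1 and 35.6 FPKM in mutants (0.23 ± 0.093, SE). The summed FPKM of this list was 463 to 602 in controls and 615 to 691 in mutants, and that of the 40 neuronal genes was 1369 to 1557 in controls and 1577 to 1695 in mutants. In both sums every mutant lay above every control, but most of the general neuron sum was Tubb3. Of the 11 tested markers of that list 2, Tubb3 and Elavl3, had all mutants above all controls, where 2.63% of all genes tested did. Celf3, Celf5, Elavl2, Nhlh1 and Nhlh2 of that list had their highest level in control replicate 1.

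For markers of single kinds of neurons the summed FPKM overlapped between the groups, and no tested gene had groups that did not overlap. Of 10 tested forebrain neuron markers 7 were above 0, with a median of 0.059. Slc17a6 and Fezf2, with the smallest p, were tested only through the mutants, and without them 5 of 8 were above 0, with a median of 0.029. Dlx1 was the most abundant, between 69.6 and 81.3 FPKM. Of 5 tested sensory ganglion markers 3 were above 0, with a median of 0.0081. Among them Isl1, a transcription factor of sensory and motor neurons, ranged from 19.7 to 23.4 FPKM. Of 9 autonomic and motor neuron markers 1, Isl2, was tested, only through the controls, with a log2 fold change of -0.20. Chat, the defining enzyme of cholinergic neurons, was listed at 0 in the 3 controls and at most at 0.0667 FPKM in mutants. Of 8 olfactory and retinal markers 2 were tested, Ebf2 and Otx2, and Omp of mature olfactory neurons stayed at or under 0.271 FPKM. Atoh7 of that list, below the level for testing, had all mutants below all controls. It was at 2.98, 2.84 and 2.70 FPKM in controls and 2.31, 2.49 and 1.53 FPKM in mutants. The sources used here do not say whether brain tissue was part of the dissection.

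Other cell types moved with the samples too. For 12 neural progenitor markers, 11 with log2 fold changes above 0 and a median of 0.16, the summed FPKM was 450, 230 and 333 in controls and 335, 399 and 368 in mutants. Control replicates 1 and 2 were the extremes, and Lhx2 alone spanned 28.1 to 90.0 FPKM, while Eomes spanned 6.67 to 13.8 FPKM and Nes, the most abundant, 46.8 to 81.4 FPKM. For 8 crest glia markers, 4 of them tested and 3 above 0, it was 202 to 287 in controls and 237 to 354 in mutants, most of it Fabp7, and Erbb3 ranged from 6.69 to 11.8 FPKM. For 10 cranial mesenchyme markers, of which 1 was above 0, the sum was 767, 1034 and 892 in controls and 811, 820 and 785 in mutants. Col1a1 was at 135, 162 and 123 FPKM in controls and 113, 121 and 82.1 FPKM in mutants (log2 fold change -0.42 ± 0.17, SE). Alx4 ranged from 29.0 to 38.8 FPKM, and Col3a1, the most abundant, from 209 to 378 FPKM.

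For 9 skeletal muscle markers, 7 tested and none above 0 with a median of -0.43, the summed FPKM was 164, 440 and 274 in controls and 157, 245 and 194 in mutants. Myod1 was lower in all mutants, at 9.40, 12.7 and 9.11 FPKM in controls and 8.93, 8.35 and 6.86 FPKM in mutants. Myog ranged from 22.4 to 43.9 FPKM, and Actc1, the most abundant, from 63.4 to 157 FPKM. For 7 surface epithelium markers, of which 1 was above 0, the sum was 121 to 211 in controls and 121 to 168 in mutants, with Trp63 between 7.20 and 9.69 FPKM and Krt5 between 35.6 and 77.6 FPKM. For 5 endothelial markers, 3 above 0, it was 69.0 to 97.8 in controls and 73.9 to 88.2 in mutants, with Emcn, Pecam1 and Cdh5 all between 15.4 and 29.7 FPKM. Tek of that list was tested only through the mutants, and without it 2 of 4 were above 0, with a median of -0.025. For erythroid markers, with 4 of 4 tested above 0, the sum was 4617 to 9395 in controls and 6277 to 9783 in mutants, most of it the embryonic globin Hbb-y, and Alas2 ranged from 15.4 to 29.2 FPKM. Control replicate 2, the lowest sample for 19 of the 35 neuronal genes, was the highest for muscle, mesenchyme, epithelium and endothelium. What part the makeup of the dissected tissue had in the neuronal values was not tested.

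**Figure D4:**
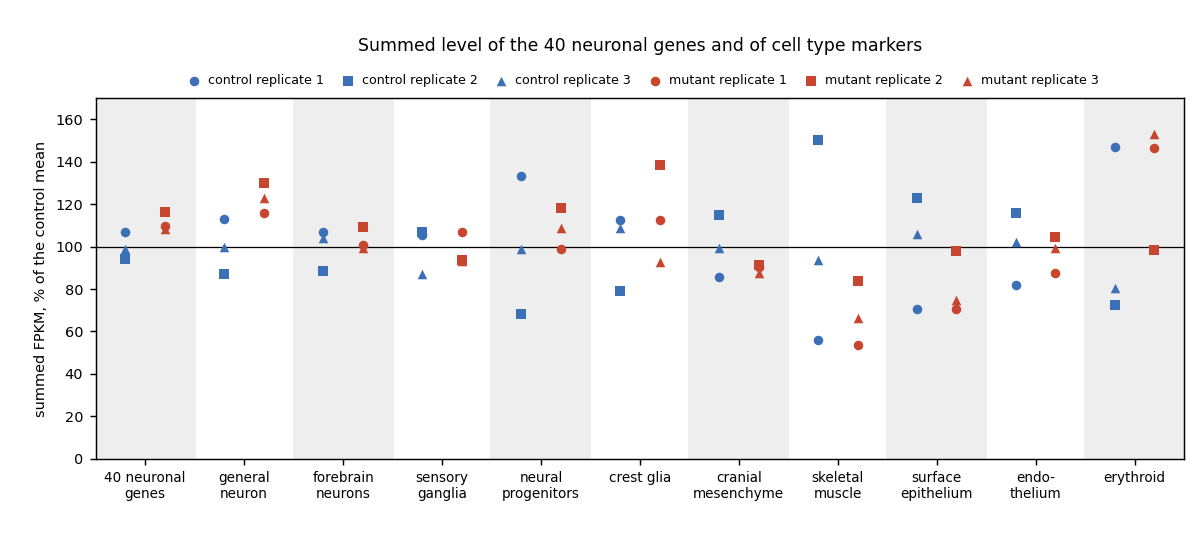
Summed FPKM of the 40 neuronal genes and of 10 cell type marker lists in each sample, as a percentage of the control mean of that list. For the neuronal genes and the general neuron markers, every mutant (red) lies above every control (blue). Most of the general neuron sum is Tubb3. Control replicate 2 (blue square) is the highest for muscle, mesenchyme, epithelium and endothelium.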

How the data were processed

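Poly(A)+ RNA from 6 craniofacial samples was sequenced as paired-end reads from a strand-marking kit. The authors aligned reads to GRCm38 with STAR and computed FPKM per gene, with Cuffdiff and FastQC 0.11.4 also in the submitters' processing notes. The annotation and the use of strand in counting are not given in the sources used here. The deposited FPKM, normalized by gene length and mapped fragments, were read from the table of all samples, whose values differed from the single-sample tables for 0 genes. Depth is not in these files.

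Genes above 5 FPKM throughout at least 1 of the groups, the limit in the study's methods, were tested as log2(FPKM + 1) with limma 3.58.1 (R 4.3.3, intensity trend), two-sided, with Benjamini-Hochberg adjustment over all 10061 genes. A fold change on this scale understates that of low genes. Untested members were read from a fit without the filter. The script was tested on simulated data. The members and lists were chosen with earlier results of these data known, so no p was adjusted over a list. All 40 members are named, with the value in every sample for those at an unadjusted p under 0.05, those whose groups do not overlap and, per role, the 2 with the highest level and the 2 with the largest fold change. From each of the 16 other lists, the 2 genes with the smallest p and the one with the highest level were chosen for naming, apart from a single gene that is not reported here. Genes named beyond these, such as Prph, Rab3c, Dnm1, Chl1, Cntn5, Chat, Omp and Atoh7, were chosen after their values were seen. Alternatives covered the pseudocount, scaling, filter, replicate block, Y-linked genes and each sample left out. Counts over genes above 5 FPKM in both groups, from the same fit, were added after seeing the data.

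To check the pairing, deviations from group means were correlated over genes. Same-numbered samples gave 0.644, 0.258 and 0.513, and on these values, from the same data, they were treated as pairs in the replicate block. Samples 2 and 3 of different groups gave 0.234 and 0.401, and pairs of a first replicate with another gave -0.685 to -0.369. Control replicate 3 with mutant replicate 2, at 0.401, was above the second replicates at 0.258. The values thus set the first replicates apart from the rest and do not clearly pair replicates 2 and 3 by number. The labels do not say that a number marks a litter.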

Additional observations from a re-analysis of the deposited data

How the results depend on the processing

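The median log2 fold change of the tested neuronal genes, 0.18 as reported, was 0.116 to 0.221 when each sample was left out in turn. It was 0.076 with the Y-linked covariate, a fit that rests in effect on mutant replicate 3 alone among the mutants. No neuronal gene had an adjusted p under 0.05 (limma) in any setting, and the smallest was 0.37 with replicates 2 and 3 only. The count of neuronal genes at an unadjusted p under 0.05 (limma), 6 as reported, was 14 with the replicate block and 14 with a term for the first replicates. It was 17 with replicates 2 and 3 only and 1 to 13 with a sample left out. The lowest count came without mutant replicate 2 and the highest without control replicate 1. Over all genes that count, 167 as reported, was 286 with a mean FPKM over 1 as the filter, 663 with no filter, 604 with the replicate block, 611 with the term for the first replicates, 1130 with replicates 2 and 3 only and 78 to 690 with a sample left out. At an adjusted p under 0.05 (limma), 0 genes became 3 with the term for the first replicates, 4 with replicates 2 and 3 only and 0 to 5 with a sample left out. The share of all genes above 0 moved from 52.8% to 60.0% with the Y-linked covariate. Some fold changes turned sign. With the Y-linked covariate the log2 fold change was -0.057 for Nefl, 0.051 for Nefm, -0.016 for Nrxn2 and -0.037 for Syn1, and with replicates 2 and 3 only it was -0.13 for Nefl. With a sample left out, it ran from -0.12 to 0.14 for Chga, from -0.059 to 0.068 for Cplx2, from -0.065 to 0.53 for Gpm6a, from -0.13 to 0.019 for L1cam, from -0.14 to 0.051 for Ncam1, from -0.081 to 0.25 for Nefl, from -0.29 to 0.15 for Nefm, from -0.020 to 0.17 for Nrcam and from -0.028 to 0.044 for Syt1. The cause was not tested. The replicate block left every fold change as it was and changed no adjusted call. The pseudocount, the scaling and the intensity trend moved none of these counts by over 1.5 times and turned no sign.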
